A study of Mus musculus with 21 samples.

Results

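The genes described here encode the transforming growth factor beta (TGF-beta) ligands *Tgfb1*, *Tgfb2* and *Tgfb3*, the activin subunit *Inhba*, the receptors *Tgfbr1*, *Tgfbr2* and *Tgfbr3*, the signal transducer *Smad3* and the inhibitor *Smad7*. They were taken by gene symbol, with no measured value in the rule, and are 9 of the 56691 genes in the table. They were, however, chosen with earlier results of these data known. All 9 were detected in all 21 heart libraries. All 9 also passed the filter on low values, a mean of at least 0.5 FPKM (fragments per kb of gene length, scaled to the library total), which 13990 genes passed.

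TGF-beta ligands are secreted in a latent complex that is held in the extracellular matrix and must be released before it can signal. The free ligand binds TGFBR2, which recruits and phosphorylates TGFBR1, and TGFBR1 then phosphorylates SMAD2 and SMAD3, which enter the nucleus with SMAD4. In the heart the pathway is best known for turning fibroblasts into matrix-producing cells.

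Hearts came from 4 groups of mice, and the question was how doxorubicin changes cardiac expression without and with a tumor. Control mice (5 libraries) received normal saline, and DOX mice (5 libraries) received doxorubicin, an anthracycline, intraperitoneally at 5 mg/kg once a week for 3 weeks. Tb mice (6 libraries) carried subcutaneous tumors of the mouse mammary carcinoma line 4T-1 and received saline, and Tb-DOX mice (5 libraries) carried the tumor and received the same doxorubicin course. Strain, sex and age were not given in the sources used here, and no source says whether a library is 1 animal, so p-values measure the spread between these libraries. The labels name 4T-1 as the source of every library, also of those without a tumor, while the study's methods describe heart tissue.

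Total counts ranged from 13521200 to 18601445 per library. The 8 cardiomyocyte markers summed to between 48100 and 87400 CPM (read counts scaled to library size by TMM), and 6 epithelial and tumor markers to at most 4.58 CPM. Summed cardiomyocyte markers were 57300 to 70200 CPM in Control and 72200 to 87400 CPM in DOX, endothelial markers were 1460 to 1560 CPM in Control and 1050 to 1410 CPM in DOX, macrophage markers were 103 to 123 CPM in Control and 40.4 to 76.9 CPM in DOX, and neutrophil markers were 2.45 to 4.66 CPM in Control against 504 to 4350 CPM in Tb. Atrial markers were 100 to 376 CPM in Control and 392 to 750 CPM in DOX, and erythroid markers 203 to 794 and 4.71 to 132 CPM. With a tumor, cardiomyocyte markers were 48100 to 57400 CPM in Tb and 60600 to 75200 CPM in Tb-DOX. In the same order endothelial markers were 1510 to 2080 and 1210 to 1510 CPM, and macrophage markers 115 to 154 and 67.7 to 132 CPM. Atrial markers were 91.0 to 301 and 145 to 630 CPM, and erythroid markers 369 to 829 and 2.46 to 28.8 CPM. Fibroblast markers, 2 of which are also matrix or pathway genes below, were 1160 to 1500 CPM in Control, 944 to 1450 in DOX, 1040 to 1310 in Tb and 826 to 1090 in Tb-DOX. This sum follows mostly *Dcn*, the largest of the 8, which averaged 796 CPM in Control and 980 CPM in DOX. *Col1a1*, another of the 8, averaged 61.5 and 13.5 CPM, so the sum does not show how the smaller markers moved. The part of these shifts in the results below was not tested. In whole tissue, fewer cells of a type and less RNA per cell cannot be told apart. DOX replicate 4 stood apart by T cell and thymocyte markers, at 311 CPM against 5.19 to 14.9 CPM in the other DOX libraries. Tb replicate 5 stood apart by its spread, with a voom weight of 0.125 against 0.393 to 2.06 in the other libraries, and held the highest value of 5 of the 9 genes. Values that turn on either are given without it as well.

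At most 2 of the 9 genes were called in any single comparison. Called here means an adjusted p under 0.05 in edgeR, over all genes tested. In DOX against Control 1 of the 9 was called, *Tgfb3*, which fell, where 36.2% of all tested genes were called and 18.2% were called lower. In Tb-DOX against Tb 0 of the 9 were called by edgeR, where 4.72% of all genes were. At an unadjusted p under 0.05 that count was 3, where 20.4% of all genes passed, and it was 1 with DESeq2 and 2 with limma-voom and library weights. The interaction, which asks whether the doxorubicin difference itself differed between the states, called 0 of the 9 in edgeR against 8.94% of all genes. It had 2 at an unadjusted p under 0.05, where 28.9% of all genes passed, and 0 with DESeq2 and with limma-voom. In Tb against Control 2 of the 9 were called, *Tgfb3* lower and *Inhba* higher, where 6.28% of all genes were called. With a log2 fold change of at least 1 required as well, 1 of the 9 remained, *Inhba*, against 3.60% of all genes. In Tb-DOX against DOX 1 of the 9 was called, *Tgfb1*, which rose, against 17.5% of all genes. These comparisons share groups, so a gene's values in them are not independent.

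**Figure D1:**
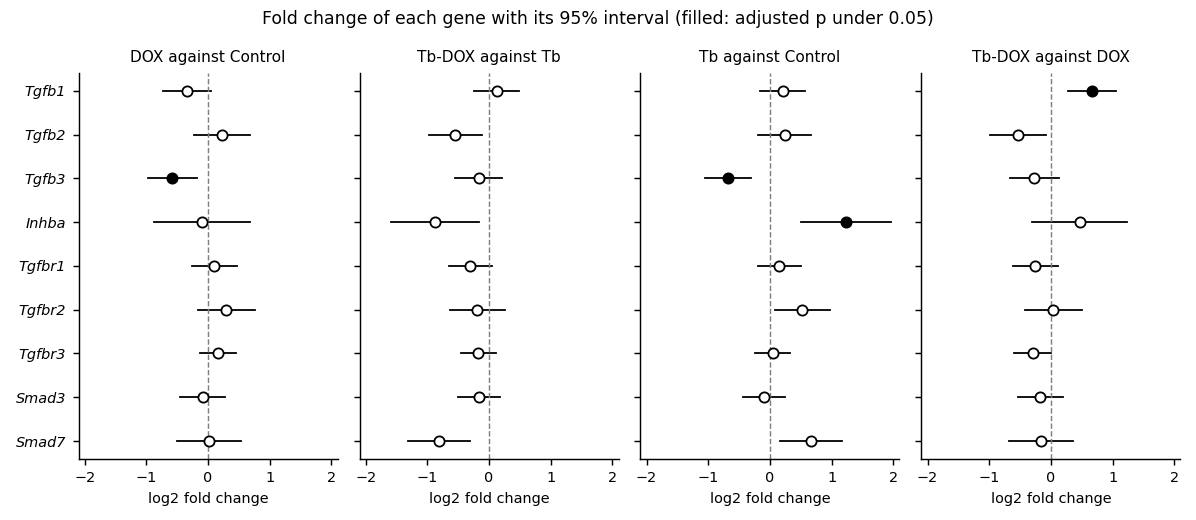
Log2 fold change (x axis) of each of the 9 genes (rows) in the 4 pairwise comparisons (panels), from 1 edgeR fit, with 95% intervals as lines. Filled points passed an adjusted p of 0.05: *Tgfb3* at -0.58 in DOX against Control, *Tgfb3* at -0.68 and *Inhba* at 1.24 in Tb against Control, and *Tgfb1* at 0.67 in Tb-DOX against DOX.

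Levels were compared per length. In Control, *Tgfbr3* had the highest mean level, 10.2 ± 1.26 FPKM (SD, n = 5), above all others beyond their spread. *Tgfb3* (6.74 ± 0.70), *Tgfbr2* (6.21 ± 0.70) and *Tgfbr1* (5.88 ± 0.92 FPKM) came next, each neighbour within the spread of the other. *Smad7* (3.80 ± 0.27), *Tgfb2* (3.30 ± 0.27), *Smad3* (2.97 ± 0.50) and *Tgfb1* (2.63 ± 0.37 FPKM) followed, also with overlapping neighbours. *Inhba* was lowest at 0.66 ± 0.13 FPKM. *Tgfbr3* was first and *Inhba* last in each of the 4 groups. *Tgfb3*, the second in Control, stood below all 3 receptors in DOX at 4.11 ± 0.51, in Tb at 4.35 ± 1.16 and in Tb-DOX at 3.87 ± 1.05 FPKM. In Tb *Smad7* came right after the receptors at 6.11 ± 2.65 FPKM (n = 6).

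**Figure D2:**
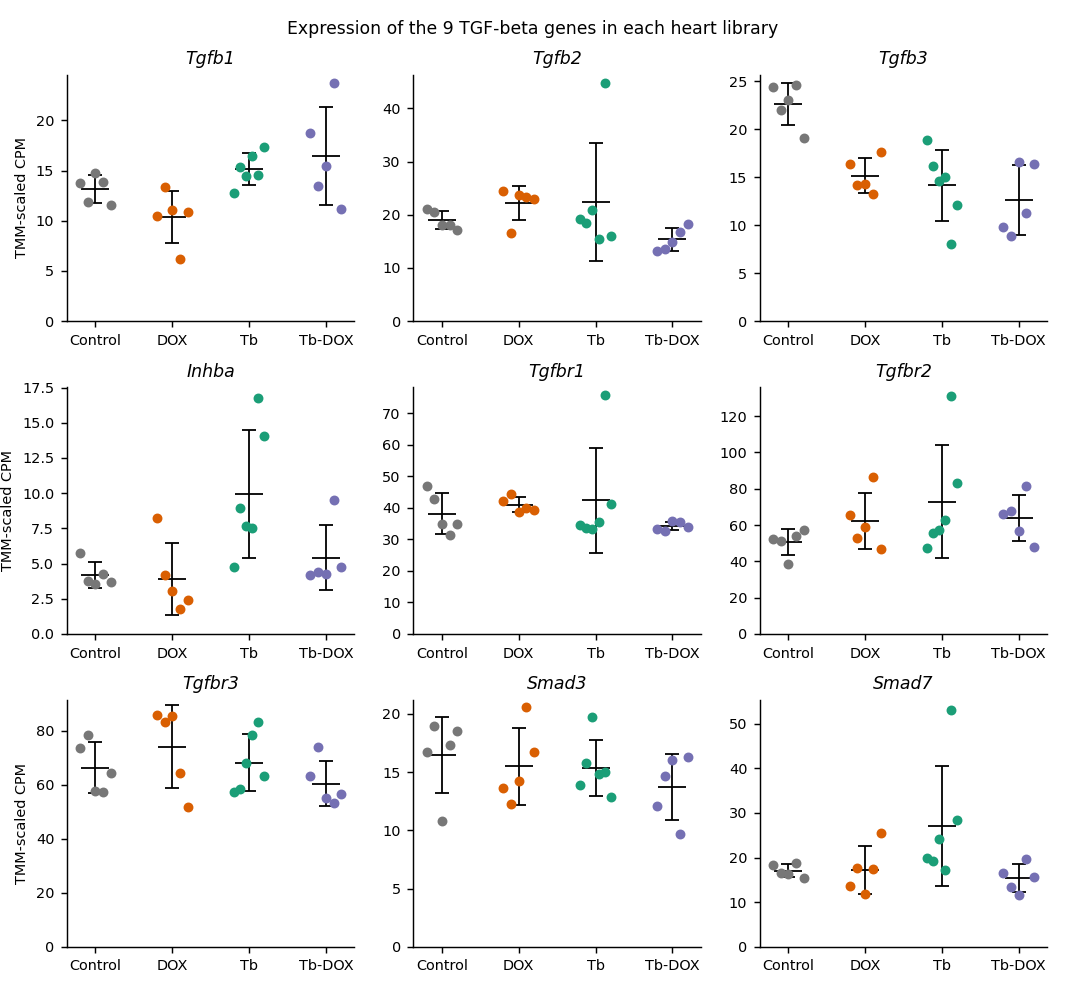
TMM-scaled CPM (y axis, from 0) of each of the 9 genes in every library, by group (x axis). Points are libraries, and bars are the mean with SD (n = 5, 5, 6 and 5). *Tgfb3* is higher in all 5 Control libraries (19.1 to 24.6 CPM) than in any DOX or Tb library, and a single Tb library, replicate 5, holds the highest value of *Tgfb2*, *Inhba*, *Tgfbr1*, *Tgfbr2* and *Smad7*.

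*Tgfb3*, at chr12:86103519-86125815 on the minus strand (GRCm39), encodes a TGF-beta ligand and gave the clearest difference among the 9. The Control libraries held 24.4, 22.0, 23.1, 24.6 and 19.1 CPM, and the DOX libraries 16.4, 14.2, 14.3, 13.2 and 17.7 CPM. In Tb the lowest value was 8.07, the median 14.9 and the highest 18.9 CPM, and the Tb-DOX libraries held 9.83, 8.87, 16.6, 11.3 and 16.4 CPM. Every DOX and every Tb library lay below every Control library. Groups without overlap were found for 25.3% of all genes in DOX against Control and for 6.18% in Tb against Control.

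*Tgfb3* fell by 0.58 on the log2 scale in DOX against Control (0.67-fold, SE 0.19, edgeR adjusted p = 0.0221, exact permutation p = 0.00794, the smallest that 5 against 5 libraries allow). It fell by 0.68 in Tb against Control (0.62-fold, SE 0.18, edgeR adjusted p = 0.0259, exact permutation p = 0.00433, the smallest that 6 against 5 allow). Under the tumor the doxorubicin difference was -0.17 (95% interval -0.55 to 0.21, edgeR adjusted p = 0.653), or -0.285 without Tb replicate 5, and the interaction was 0.41 (-0.14 to 0.96, edgeR adjusted p = 0.312). Without DOX replicate 4 the adjusted p in DOX against Control was 0.056 (edgeR), while without DOX replicate 4 and Tb replicate 5 together it was 0.0158. In Tb against Control it was no longer called in 5 of 21 fits with a single library removed, namely Control replicates 1 to 4 and Tb replicate 6, with adjusted p up to 0.0676 (edgeR). It also missed the threshold with only the 2 groups in the fit (edgeR adjusted p = 0.0562) and with limma on log2(FPKM + 0.1) (adjusted p = 0.0517) or log2(FPKM + 0.01) (adjusted p = 0.0547). A part of *Ttll5*, at 0.69 FPKM on average, lies on the opposite strand of *Tgfb3*. *Ttll5* was not called in either comparison (-0.11, edgeR adjusted p = 0.472, and 0.03, adjusted p = 0.898).

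*Tgfb2*, at chr1:186354989-186438186 on the minus strand, encodes the ligand that depends most on the co-receptor TGFBR3. Values in Control were 20.997, 20.5, 18.1, 18.1 and 17.1 CPM and the DOX libraries 24.4, 16.6, 23.8, 23.3 and 23.0 CPM, so that 4 of 5 DOX libraries lay above all Control libraries and 1 lay below them. Tb ran from 15.5 over a median of 18.8 to 44.7 CPM, the highest being replicate 5, and Tb-DOX held 13.2, 13.6, 14.9, 16.7 and 18.3 CPM. The difference was 0.23 in DOX against Control (95% interval -0.22 to 0.68, edgeR adjusted p = 0.43) and -0.55 in Tb-DOX against Tb (-0.98 to -0.11, edgeR adjusted p = 0.137, exact permutation p = 0.0433).

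Without Tb replicate 5 the *Tgfb2* difference in Tb-DOX against Tb shrank to -0.22 (edgeR adjusted p = 0.303), and the Tb against Control difference turned from 0.24 to -0.07. Without that library the spread of the fit was smaller too, and *Tgfb2* was then called in Tb-DOX against DOX at -0.53 (edgeR adjusted p = 0.00276), where the fit on all libraries gave -0.53 with an adjusted p of 0.0945. All 5 Tb-DOX libraries were below the mean of DOX. The predicted gene *Gm35546* lies on the opposite strand over part of *Tgfb2*, averaged 4.84 FPKM, and fell by 1.66 in Tb-DOX against Tb (SE 0.47, edgeR adjusted p = 0.0431). The *Gm35546* difference was -0.87 without Tb replicate 5 and not called (edgeR adjusted p = 0.099). The sources used here do not state whether counting used strand, so reads of these overlapping genes may not have been told apart.

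*Tgfb1*, at chr7:25386427-25404502 on the plus strand, encodes the best known ligand of the family. The Control libraries held 13.7, 11.8, 14.8, 13.9 and 11.5 CPM and the DOX libraries 10.5, 13.4, 11.1, 6.18 and 10.8 CPM. Tb ran from 12.8 over a median of 14.9 to 17.4 CPM, and Tb-DOX held 18.7, 13.5, 15.4, 23.7 and 11.1 CPM. The lowest value of all was DOX replicate 4 and the highest Tb-DOX replicate 4. *Tgfb1* rose by 0.67 on the log2 scale in Tb-DOX against DOX (1.59-fold, SE 0.18, edgeR adjusted p = 0.0164, exact permutation p = 0.0238), although the groups overlapped. Without DOX replicate 4 the rise was 0.52 (edgeR adjusted p = 0.0465), and without Tb-DOX replicate 4 it was 0.51 and no longer called (edgeR adjusted p = 0.0603). With only the 2 groups in the fit it was 0.67 and not called (edgeR adjusted p = 0.0533). Neutrophil marker sums were 7.68 to 56.9 CPM in DOX and 796 to 3190 CPM in Tb-DOX, where replicate 4 had the highest sum and the highest *Tgfb1* and replicate 5 the lowest of both, and their part in the *Tgfb1* difference was not tested.

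The doxorubicin differences of *Tgfb1* were -0.34 without a tumor (95% interval -0.72 to 0.05, edgeR adjusted p = 0.159, exact permutation p = 0.0238) and 0.12 with one (-0.24 to 0.48, edgeR adjusted p = 0.743). The former was -0.19 without DOX replicate 4. The interaction was 0.46 (-0.07 to 0.99, edgeR adjusted p = 0.23), so the apparent contrast between the states did not pass its own test. The permutation test used FPKM scaled by library totals, under which the median of all genes in DOX against Control lay at -0.14, against 0.00 with TMM.

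The 3 TGF-beta ligands can also be set against each other within a library, which needs no scaling between libraries. Of their summed FPKM, *Tgfb3* made up 53.2% ± 1.32 in Control, 43.1% ± 2.12 in DOX, 38.3% ± 10.6 in Tb and 38.3% ± 8.07 in Tb-DOX (SD, n = 5, 5, 6 and 5). *Tgfb2* made up 26.1% ± 2.05 in Control and 37.0% ± 5.30 in DOX, and its share in the 2 groups did not overlap. It was 34.1% ± 12.7 in Tb and 27.6% ± 2.99 in Tb-DOX. *Tgfb1* made up 20.7% ± 1.39, 19.8% ± 5.01, 27.6% ± 5.18 and 34.1% ± 8.94 in the same order of groups.

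In DOX hearts the shares of *Tgfb2*, *Tgfb3* and *Tgfb1* thus differed from Control by 10.9, -10.03 and -0.89 percentage points. Shares depend on each other, so a fall of any ligand raises the shares of the others. Mean *Tgfb2* was 3.30 FPKM in Control and 3.52 in DOX, and mean *Tgfb3* 6.74 and 4.11 FPKM. Between Tb-DOX and Tb the *Tgfb2* share differed by -6.47 points, and by -1.41 points without Tb replicate 5, a library in which *Tgfb2* made up 59.4%. The *Tgfb3* share was below every Control library in every Tb library. These shares are combinations of the members and are described without a test.

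**Figure D3:**
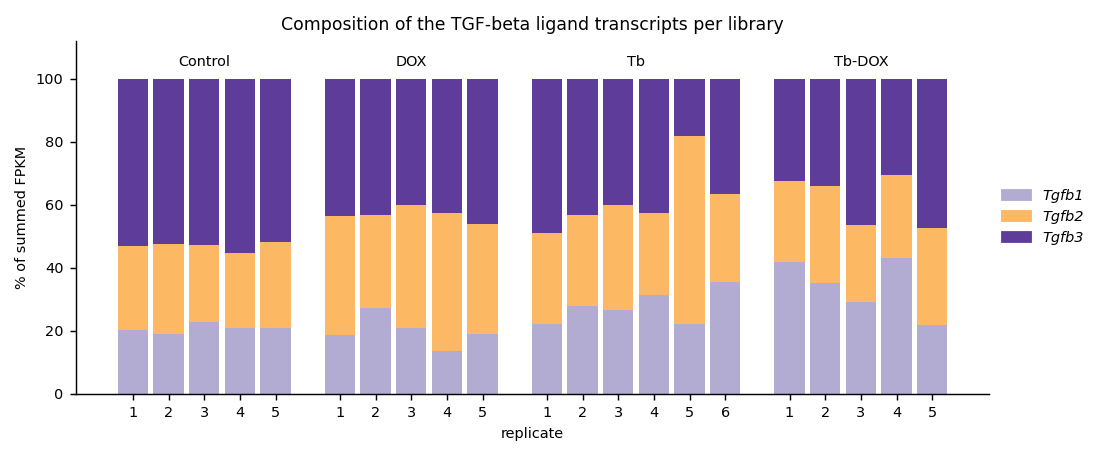
Share of *Tgfb1*, *Tgfb2* and *Tgfb3* in their summed FPKM (y axis, %), 1 bar per library, grouped as labelled. The *Tgfb3* part lies between 51.9% and 55.4% in all 5 Control libraries and between 40.1% and 46.1% in the DOX libraries, and Tb replicate 5 stands out by a *Tgfb2* part of 59.4%.

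*Inhba*, at chr13:16186436-16206206 on the plus strand, encodes the subunit of activin A, a ligand that signals through activin receptors to SMAD2 and SMAD3. Values in Control were 5.78, 3.76, 3.53, 4.28 and 3.71 CPM and the DOX libraries 8.22, 4.17, 3.05, 1.76 and 2.38 CPM. Tb ran from 4.77 over a median of 8.28 to 16.7 CPM, and Tb-DOX held 4.19, 4.404, 4.25, 9.52 and 4.76 CPM. In Tb 5 of the 6 libraries lay above all Control libraries, and 4 of the 5 Tb-DOX libraries lay below the lowest Tb library. These levels rest on 22 to 278 reads per library.

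*Inhba* rose by 1.24 on the log2 scale in Tb against Control (2.36-fold, SE 0.35, edgeR adjusted p = 0.0378, exact permutation p = 0.00866). It was no longer called in 6 of 21 fits with a single library removed, namely Control replicates 2 to 5 and Tb replicates 5 and 6, with the rise between 1.03 and 1.24 and adjusted p up to 0.0926 (edgeR). Nor was it called without DOX replicate 4 and Tb replicate 5 together (edgeR adjusted p = 0.0625) or with limma at pseudocounts of 0.1, 1 and 0.01 FPKM (adjusted p = 0.0671, 0.0503 and 0.0767). The 2 Tb libraries with the highest *Inhba*, replicates 5 and 6 at 16.7 and 14.1 CPM, also had the highest neutrophil marker sums, 4350 and 4170 CPM against 504 to 1830 in the other Tb libraries. In Tb-DOX replicates 1 to 5 the sums were 1960, 2310, 1660, 3190 and 796 CPM, beside *Inhba* at 4.19, 4.404, 4.25, 9.52 and 4.76 CPM, so that replicate 4 was highest in both and the others lay close together in *Inhba*. Of the 7 neutrophil markers 1 was at 0 in every Control library and 0 were in every library of another group, and their part in the *Inhba* difference was not tested. The Tb-DOX against Tb difference was -0.87 (95% interval -1.59 to -0.16, edgeR adjusted p = 0.151, exact permutation p = 0.0736). In DOX against Control it was -0.10 (-0.87 to 0.68, edgeR adjusted p = 0.865), and it turned to 0.09 without DOX replicate 4 and went to -0.56 without DOX replicate 1.

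*Inhba* rose in Tb against Control and *Tgfb1* in Tb-DOX against DOX. *Inhba* was not called in Tb-DOX against DOX (0.46, edgeR adjusted p = 0.404), nor *Tgfb1* in Tb against Control (0.21, edgeR adjusted p = 0.522). The interaction, which is the test of that difference between comparisons, passed for neither (-0.77, edgeR adjusted p = 0.316 for *Inhba*, and 0.46, adjusted p = 0.23 for *Tgfb1*). Their start regions are shown because they differ in composition. The RefSeq windows (GRCm38.p6, 300 bases around the start, plus strand) are chr7:25686752-25687051 for *Tgfb1* and chr13:16011601-16011900 for *Inhba*. Capitals mark the letters TATAAA, the TATA box core.

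Tgfb1: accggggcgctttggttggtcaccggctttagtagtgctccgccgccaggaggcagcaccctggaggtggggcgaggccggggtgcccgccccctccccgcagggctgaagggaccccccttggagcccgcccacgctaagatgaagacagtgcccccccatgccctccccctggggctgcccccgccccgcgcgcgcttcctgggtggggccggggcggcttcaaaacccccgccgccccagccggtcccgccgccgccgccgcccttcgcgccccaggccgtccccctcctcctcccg
Inhba: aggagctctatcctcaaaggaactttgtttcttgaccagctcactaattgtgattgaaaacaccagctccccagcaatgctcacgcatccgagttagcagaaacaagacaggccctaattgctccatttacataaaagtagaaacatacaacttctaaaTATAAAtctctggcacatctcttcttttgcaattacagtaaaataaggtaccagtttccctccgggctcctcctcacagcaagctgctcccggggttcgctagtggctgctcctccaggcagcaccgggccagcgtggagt

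The *Tgfb1* window is 77.0% G and C and the *Inhba* window 47.7%, against a median of 52.7% over 32851 promoter windows. The letters TATAAA on either strand stand in 13.6% of all windows, in the *Inhba* window 1 time and not in the *Tgfb1* window. The SMAD-binding letters CAGAC on either strand stand in 49.6% of all windows and in neither of these. Of the 9 genes 6 had a window, and 3 of those 6 held CAGAC (*Tgfb2*, *Tgfbr1* and *Tgfbr2*). These are descriptions of letters and say nothing of binding.

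The type I receptor gene *Tgfbr1*, at chr4:47353222-47414931 on the plus strand, encodes the kinase that phosphorylates SMAD2 and SMAD3. The Control libraries held 46.9, 42.8, 34.9, 31.4 and 35.0 CPM, the DOX libraries 42.3, 44.5, 38.8, 40.1 and 39.2 CPM, and the Tb-DOX libraries 33.5, 32.8, 35.8, 35.5 and 33.9 CPM. In Tb the lowest value was 33.3, the median 35.1 and the highest 75.8 CPM, in replicate 5. In CPM, Tb-DOX lay below DOX without overlap, as 14.5% of all genes did in either direction, but the difference of -0.26 was not called (95% interval -0.62 to 0.11, edgeR adjusted p = 0.327, exact permutation p = 0.302). With only the 2 groups in the fit it was called at -0.25 (edgeR adjusted p = 0.0457). In FPKM, which is scaled by library totals, the groups did overlap, with Tb-DOX replicate 4 at 6.20 against 5.41 to 6.03 FPKM in DOX. The doxorubicin differences were 0.10 (-0.26 to 0.47, edgeR adjusted p = 0.681) without a tumor and -0.30 (-0.65 to 0.04, edgeR adjusted p = 0.32) with one. Without Tb replicate 5 the latter was -0.05.

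*Tgfbr2*, at chr9:115913361-116004428 on the minus strand, encodes the ligand-binding type II receptor. Control values were 52.3, 51.5, 38.4, 54.0 and 57.4 CPM, and the DOX libraries 65.8, 53.0, 59.0, 86.6 and 46.6 CPM. Tb ran from 47.2 over a median of 60.0 to 131 CPM, and Tb-DOX held 66.0, 67.6, 56.6, 81.3 and 48.1 CPM. All groups overlapped. Its difference was 0.29 in DOX against Control (95% interval -0.17 to 0.76, edgeR adjusted p = 0.315) and 0.52 in Tb against Control (0.08 to 0.97, edgeR adjusted p = 0.165). The former was 0.15 without DOX replicate 4, the highest DOX library. The latter was 0.28 without Tb replicate 5, and the Tb-DOX against Tb difference turned from -0.19 to 0.07.

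*Tgfbr3*, at chr5:107254436-107437495 on the minus strand, encodes betaglycan, the co-receptor that presents ligand to TGFBR2. The Control libraries held 73.5, 78.5, 57.7, 57.4 and 64.3 CPM, and the DOX libraries 85.9, 83.2, 85.5, 64.5 and 51.9 CPM. Tb ran from 57.5 over a median of 65.7 to 83.2 CPM, and Tb-DOX held 63.3, 74.0, 55.2, 53.4 and 56.6 CPM. The DOX libraries thus held both the highest and the lowest value of the 21. No comparison called it on all libraries, and without DOX replicate 5 its difference in Tb-DOX against DOX was called at -0.41 (edgeR adjusted p = 0.0375). The doxorubicin differences were 0.16 (95% interval -0.13 to 0.46, edgeR adjusted p = 0.387) without and -0.17 (-0.46 to 0.11, edgeR adjusted p = 0.512) with a tumor, the latter -0.10 without Tb replicate 5. For these 3 receptors a change of more than 0.76 on the log2 scale lay outside the 95% intervals of both doxorubicin comparisons.

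*Smad3*, at chr9:63554049-63665276 on the minus strand, encodes the receptor-activated transcription factor of the pathway. Control values were 16.8, 18.9, 10.8, 17.3 and 18.5 CPM, and the DOX libraries 13.6, 12.3, 14.3, 20.6 and 16.7 CPM. Tb ran from 12.9 over a median of 14.9 to 19.8 CPM, and Tb-DOX held 12.1, 14.7, 16.01, 9.69 and 16.3 CPM. All pairs of groups overlapped, and its differences were -0.09 in DOX against Control (95% interval -0.45 to 0.27, edgeR adjusted p = 0.722) and -0.16 in Tb-DOX against Tb (-0.51 to 0.18, edgeR adjusted p = 0.636). The former was -0.205 without DOX replicate 4.

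*Smad7*, on chromosome 18, encodes the inhibitor that the pathway itself induces and that blocks TGFBR1. Control hearts gave 18.4, 16.4, 16.2, 18.9 and 15.5 CPM, and the DOX libraries 13.6, 17.7, 11.9, 17.4 and 25.6 CPM. Tb ran from 17.2 over a median of 22.1 to 53.2 CPM, and Tb-DOX held 16.5, 13.3, 11.7, 19.8 and 15.6 CPM. DOX spread to both sides of Control, while all 5 Tb-DOX libraries lay below the mean of Tb and 4 of them below every Tb library.

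The *Smad7* difference in Tb-DOX against Tb was -0.81 (0.57-fold, 95% interval -1.32 to -0.31, SE 0.24), just outside the threshold in edgeR (adjusted p = 0.0551, exact permutation p = 0.026). DESeq2 called it at -0.83 (adjusted p = 0.0175) and limma-voom with library weights at -0.49 (adjusted p = 0.0246). Without Tb replicate 5 it was -0.50 (edgeR adjusted p = 0.0964), and it was called in 3 of 21 fits with a single library removed, namely DOX replicates 3 and 5 and Tb replicate 4 (adjusted p from 0.042 to 0.049). In DOX against Control the difference was 0.01 (-0.51 to 0.53, edgeR adjusted p = 0.978), and the interaction was -0.82 (-1.55 to -0.10, edgeR adjusted p = 0.123), or -0.52 without Tb replicate 5 (edgeR adjusted p = 0.194). In Tb against Control it was 0.66 (0.16 to 1.16, edgeR adjusted p = 0.115, exact permutation p = 0.00433), and 0.36 without Tb replicate 5.

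In Tb-DOX against Tb 8 of the 9 had a difference below 0, *Tgfbr2* only with Tb replicate 5 included, with a median log2 difference of -0.19 against -0.02 over all genes tested, and without overlap for 0 of the 9 against 4.95% of all genes. In DOX against Control 5 were above and 4 below 0, with a median of 0.01 against 0.00. No score over the members was tested.

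Other genes of the pathway were counted the same way. Their lists, too, were chosen with earlier results of these data known, so counts beside the shares of all genes are descriptions. Of 82 further genes in 7 lists, 63 passed the filter on low values. In DOX against Control 26 of these 63 were called (41.3%, near the 36.2% of all genes), 6 higher and 20 lower, where 18.0% of all genes were called higher and 18.2% lower. In Tb-DOX against Tb 10 of 63 were called (15.9%), 0 higher and 10 lower, where 2.18% were called higher and 2.54% lower. Their median log2 difference was -0.01 in the first and -0.42 in the second, where all genes tested had 0.00 and -0.02. Without Tb replicate 5 the second median was -0.16, with 44 of the 63 below 0 in place of 52. The interaction called 7 of the 63 (11.1%, against 8.94% of all genes), with *Ltbp3*, *Emilin1*, *Acvrl1*, *Col1a1* and *Comp* above 0 and *Lox* and *Atoh8* below. The count of 10 fell to 2 without Tb-DOX replicate 1 or 5, to 3 without Tb-DOX replicate 2 or 3 and to 5 without Tb replicate 1 or 2. It was 5 with only the 2 groups in the fit, 12 without both libraries that stood apart and 21 with limma-voom. *Furin* was called higher without Tb replicate 5, at 0.45 (edgeR adjusted p = 0.0306).

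**Figure D4:**
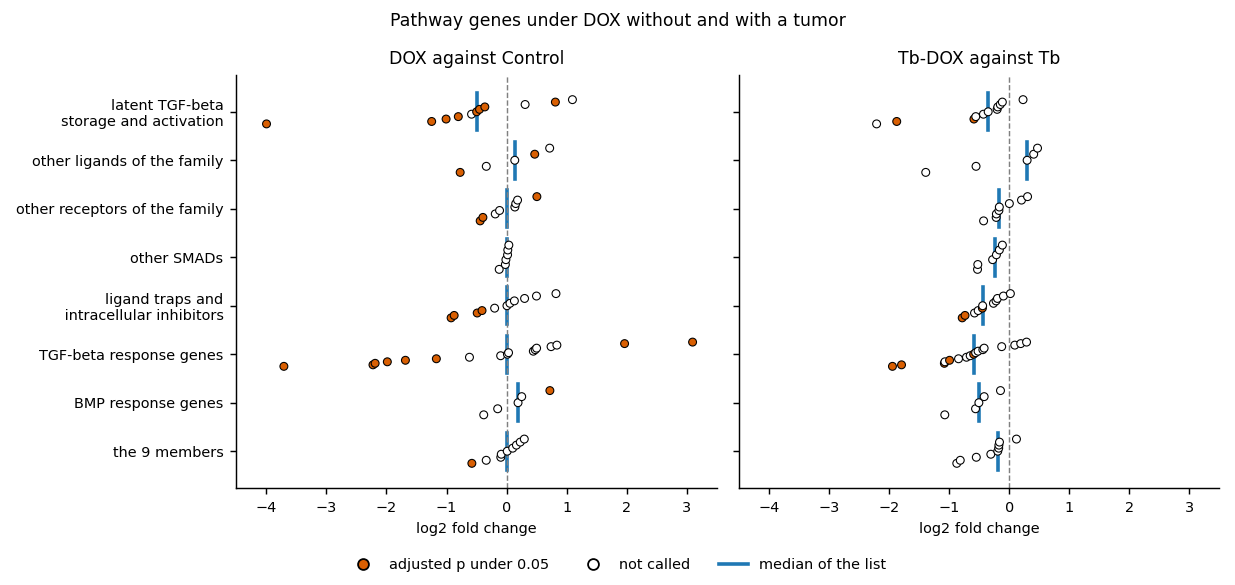
Log2 fold change (x axis) of each tested gene of 7 pathway lists and of the 9 members (rows), in DOX against Control and in Tb-DOX against Tb (panels). Points are genes, orange where the edgeR adjusted p was under 0.05, and blue bars are list medians. In the left panel 8 of 11 latency genes are orange, where 36.2% of all genes were called. In the right panel 0 of 63 listed genes are called higher, where 2.18% of all genes were.

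Genes for latent storage and release of the ligand fell in DOX against Control in 7 of 11 cases, where 18.2% of all genes were called lower. In either direction 72.7% of this list were called, where 36.2% of all genes were. Of the 11 tested, 8 were called in DOX against Control, 7 lower (*Ltbp1*, *Ltbp3*, *Ltbp4*, *Itgav*, *Itgb6*, *Emilin1* and *Fbn1*) and 1 higher (*Furin*, a protease that cleaves the precursor). *Itgav* was not called without DOX replicate 4 (-0.29, edgeR adjusted p = 0.0989). *Thbs1*, a matrix protein that activates latent TGF-beta, was at 11.7 ± 3.55 CPM in Control and 24.97 ± 8.203 in DOX (1.10, edgeR adjusted p = 0.271), and was called without Tb replicate 5 (1.10, edgeR adjusted p = 0.00342). *Ltbp4*, a latent TGF-beta binding protein of the matrix and the most abundant of the list, fell from 167 ± 18.4 CPM in Control to 83.1 ± 8.99 in DOX (-1.01, SE 0.15, edgeR adjusted p = 6.17e-05). Its means in Tb and Tb-DOX were 128 ± 34.1 and 85.6 ± 11.3 CPM, again a fall (-0.59, SE 0.15, edgeR adjusted p = 0.0265). *Itgb6*, the beta subunit of an integrin that releases latent TGF-beta, fell from 17.8 ± 6.26 to 1.12 ± 1.28 CPM without a tumor (-3.996, SE 0.57, edgeR adjusted p = 2.91e-05), and with one its means were 11.9 ± 8.24 and 3.24 ± 0.74 CPM, also a fall (-1.87, SE 0.48, edgeR adjusted p = 0.0297).

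*Emilin1*, a matrix glycoprotein that holds back processing of the TGF-beta precursor, fell from 14.8 ± 0.81 to 6.24 ± 0.86 CPM in DOX against Control (-1.25, SE 0.16, edgeR adjusted p = 1.25e-05). With a tumor its means were 20.1 ± 3.73 and 14.9 ± 3.54 CPM (-0.43, SE 0.15, edgeR adjusted p = 0.0945). The interaction of *Emilin1* was 0.82 (SE 0.21, edgeR adjusted p = 0.0262). Under doxorubicin with a tumor 2 of the 11 were called, both lower (*Ltbp4* and *Itgb6*). These were 18.2% of the list, where 4.72% of all genes were called and 2.54% called lower. Of 21 fits with a single library removed, 5 lost the *Ltbp4* call with a tumor (Tb replicates 1 and 2 and Tb-DOX replicates 1, 4 and 5, adjusted p up to 0.0762 in edgeR) and 7 the *Itgb6* call (the same Tb replicates and each Tb-DOX library, up to 0.0747). With only the 2 groups in the fit neither was called with a tumor, nor was *Itgb6* with limma on log2 FPKM. Neither call in DOX against Control was lost in any of the 21 fits.

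Among response genes the 2 directions were mixed without a tumor. Of 17 tested, 6 fell in DOX against Control (*Postn*, *Col1a1*, *Col3a1*, *Fn1*, *Cilp* and *Comp*, all matrix genes) and 2 rose (*Ccn2* and *Lox*). Called were thus 47.1% of the list, where 36.2% of all genes were called, 18.2% lower and 18.0% higher. *Col3a1*, a fibrillar collagen gene, fell from 225 ± 72.0 to 17.2 ± 14.2 CPM (-3.71, SE 0.50, edgeR adjusted p = 1.74e-05). *Col1a1*, also a fibrillar collagen gene and a fibroblast marker, fell from 61.5 ± 11.8 to 13.5 ± 5.24 CPM (-2.19, SE 0.27, edgeR adjusted p = 1.12e-05). *Fn1*, which encodes fibronectin, fell from 53.4 ± 10.4 to 23.7 ± 6.35 CPM (-1.17, SE 0.17, edgeR adjusted p = 2.82e-05).

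*Ccn2*, a matricellular gene widely used as a readout of TGF-beta and of YAP, rose from 144 ± 64.2 to 560.2 ± 264 CPM in DOX against Control (1.96, SE 0.57, edgeR adjusted p = 0.0108). *Lox*, a collagen cross-linking enzyme, rose from 5.43 ± 1.57 to 46.6 ± 19.1 CPM (3.10, SE 0.53, edgeR adjusted p = 0.000156). With a tumor 5 of the 17 were called and all fell (among them *Postn*, *Col3a1*, *Fn1* and *Cilp*). These were 29.4% of the list, where 4.72% of all genes were called and 2.54% called lower. *Col3a1* fell from 155 ± 57.8 to 44.8 ± 27.4 CPM (-1.79, SE 0.44, edgeR adjusted p = 0.0235), and *Fn1* from 61.9 ± 9.36 to 41.1 ± 4.30 CPM (-0.59, SE 0.16, adjusted p = 0.0334), and each lost its call in 6 of 21 fits with a single library removed. These were Tb-DOX replicates 1, 2, 3 and 5 for both, with Tb replicates 1 and 2 for *Col3a1* (edgeR adjusted p up to 0.0676) and Tb replicates 4 and 6 for *Fn1* (up to 0.0923). *Fn1* was also not called with limma on log2(FPKM + 0.1) or log2(FPKM + 0.01). *Col1a1* was at 40.9 ± 13.1 and 22.8 ± 7.73 CPM (-0.84, SE 0.25, edgeR adjusted p = 0.0568), and *Ccn2* at 232 ± 282 and 174 ± 101.3 CPM (-0.42, SE 0.53, adjusted p = 0.713). Without Tb replicate 5 *Ccn2* turned to 0.57 (edgeR adjusted p = 0.415), *Col1a1* was called at -0.95 (adjusted p = 0.0209) and *Cilp* was not (-0.86, adjusted p = 0.0713). Without that library the median of the 17 was -0.24 in place of -0.59. Above 0 were 7 of them in place of 3, and 4 were called, all lower.

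Of the inhibitors, 11 were tested. Of these, 4 fell in DOX against Control (*Smurf2*, *Nedd4l*, *Bambi* and *Pmepa1*) and 3 in Tb-DOX against Tb (*Skil*, *Smurf2* and *Pmepa1*), and 0 rose in either. The first count is 36.4% of the list, near the 36.2% of all genes, and the second is 27.3% against 4.72% of all genes. Their median log2 difference was 0.01 in the first and -0.44 in the second, or -0.225 without Tb replicate 5. The *Skil* difference went from -0.73 to -0.45 without Tb replicate 5 (edgeR adjusted p = 0.0362). *Pmepa1*, a feedback inhibitor that binds SMADs, fell from 31.9 ± 3.63 to 17.4 ± 4.53 CPM without a tumor (-0.87, SE 0.16, edgeR adjusted p = 0.000305). Between the tumor groups it fell from 31.9 ± 6.47 in Tb to 18.6 ± 0.92 CPM in Tb-DOX (-0.78, SE 0.15, edgeR adjusted p = 0.00619), and the groups overlapped in neither state. *Smurf2*, a ubiquitin ligase that works with SMAD7 on the receptor, fell from 63.9 ± 2.96 to 45.5 ± 5.79 CPM (-0.49, SE 0.10, edgeR adjusted p = 0.000743). In Tb and Tb-DOX its means were 60.9 ± 7.47 and 44.7 ± 3.62 CPM, also a fall without overlap (-0.44, SE 0.10, edgeR adjusted p = 0.0109). Both genes passed in both states in all 21 fits with a single library removed. *Bambi*, a decoy receptor, fell from 11.2 ± 0.62 to 5.88 ± 1.48 CPM without a tumor (-0.92, SE 0.19, edgeR adjusted p = 0.000858) and was at 11.5 ± 3.12 and 7.68 ± 1.40 CPM with one (-0.58, SE 0.18, adjusted p = 0.0665), where it was called without DOX replicate 4 (edgeR adjusted p = 0.0468). *Dcn*, which encodes the ligand-binding proteoglycan decorin, was at 796 ± 62.0 CPM in Control and 980.2 ± 223 in DOX (0.30, SE 0.13, edgeR adjusted p = 0.0779), and was called without Tb replicate 5 (edgeR adjusted p = 0.0445).

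The remaining SMADs were called in neither state, 0 of 6 by edgeR, where 36.2% and 4.72% of all genes were called. At an unadjusted p under 0.05 there were 0 and 1, where 45.9% and 20.4% of all genes passed. *Smad4*, the shared partner SMAD and the most abundant of them, was at 55.1 ± 5.78 CPM in Control and 54.3 ± 4.43 in DOX (-0.02, SE 0.11, edgeR adjusted p = 0.906). *Smad2* differed by -0.12 (SE 0.11, edgeR adjusted p = 0.41), *Smad1*, which serves BMP receptors, by 0.02, and the inhibitor *Smad6* by 0.04. Without DOX replicate 4 the last 2 were -0.13 and -0.12.

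Of 8 other receptors tested, 2 fell in DOX against Control (*Acvrl1* and *Acvr1*, type I receptors) and 1 rose (*Bmpr2*, a type II receptor for BMP), 37.5% of the list against 36.2% of all genes. *Bmpr2* rose from 177 ± 10.9 to 251.6 ± 31.4 CPM without overlap (0.50, SE 0.16, edgeR adjusted p = 0.0206), which no longer passed with scaling by library totals only. *Acvrl1* went from 33.9 ± 2.13 to 25.0 ± 4.24 CPM (-0.44, SE 0.15, edgeR adjusted p = 0.0223) and *Acvr1* from 17.0 ± 2.85 to 12.9 ± 1.99 CPM (-0.39, SE 0.13, adjusted p = 0.0189). *Acvrl1* was not called without DOX replicate 3 or 5 (edgeR adjusted p up to 0.0672), and *Acvr1* not without Control replicate 4 or DOX replicate 1 or 4 (up to 0.0596), nor without the filter on low values or with only the 2 groups in the fit. *Eng*, the endothelial co-receptor endoglin, was at 92.0 ± 8.18 and 84.9 ± 9.14 CPM (-0.12, SE 0.12, edgeR adjusted p = 0.457). With a tumor edgeR called 0 of the 8 (4.72% of all genes), with 1 at an unadjusted p under 0.05 (20.4% of all genes).

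Of 5 other ligands of the family tested, *Bmp6* rose and *Inha* fell in DOX against Control, 40.0% of the list against 36.2% of all genes. *Bmp6* went from 23.7 ± 4.02 to 32.8 ± 3.56 CPM (0.47, SE 0.16, edgeR adjusted p = 0.0288) and *Inha*, the inhibin alpha subunit that pairs with the product of *Inhba*, from 5.27 ± 1.31 to 3.07 ± 0.75 CPM (-0.77, SE 0.25, edgeR adjusted p = 0.0204). *Bmp6* was not called without Control replicate 3 or 4 or DOX replicate 2 or 3 (edgeR adjusted p up to 0.0751), nor with scaling by library totals, and *Inha* not without Control replicate 5 or DOX replicate 4 (up to 0.0651). *Inhbb*, the other activin subunit, was at 1.11 ± 0.53 CPM in Control and 1.83 ± 0.89 in DOX (0.72, SE 0.73, edgeR adjusted p = 0.459). With a tumor edgeR called 0 of the 5 (4.72% of all genes), with 2 at an unadjusted p under 0.05 (20.4% of all genes).

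Of 5 BMP response genes tested, 1 rose in DOX against Control, *Atoh8*, a transcription factor gene, from 5.55 ± 1.18 to 9.19 ± 4.57 CPM (0.72, SE 0.25, edgeR adjusted p = 0.0275). It no longer passed without Control replicate 2, 4 or 5 or DOX replicate 4 (edgeR adjusted p up to 0.153), and its difference without the last was 0.39. It was also lost with library totals, limma at each of 3 pseudocounts, limma-voom, only the 2 groups in the fit, and both libraries left out. *Id1* and *Id2*, direct BMP targets, differed by -0.15 (SE 0.20, edgeR adjusted p = 0.577) and 0.25 (SE 0.41, adjusted p = 0.659). Doxorubicin with a tumor gave 0 calls among the 5 in edgeR, with 4 at an unadjusted p under 0.05 (20.4% of all genes), among them *Id1* at -0.56 (adjusted p = 0.0894) and *Id2* at -1.07 (adjusted p = 0.112). *Id2* was at -0.29 without Tb replicate 5 (edgeR adjusted p = 0.387).

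As a description of pattern over the 21 libraries, the genes whose CPM ranked most like *Tgfb3* were *Inppl1* and *Adamtsl5* (Spearman rho 0.906 and 0.897). Those most like *Tgfb2* were *Nuak1* and *Ccn1* (0.894 and 0.858), and those most like *Tgfb1* were *Cep19* and *Ccnd3* (0.912 and 0.869). *Inhba* ranked most like *Plscr3* and *Atp11b* (0.865 and 0.851), *Tgfbr1* like *1700109H08Rik* and *Git1* (0.816 and 0.769), *Tgfbr2* like *Esam* and *Dennd4a* (0.878 and 0.877) and *Tgfbr3* like *Cobll1* and *Gm45047* (0.803 and 0.773). *Smad3* ranked most like *Gm30262* and *Sgcd* (0.801 and 0.781) and *Smad7* like *Kcne4* and *Ipmk* (0.848 and 0.768). The 21 points share groups and libraries that stand apart, so these values have no p.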

How the data were processed

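RNA was measured in 21 mouse heart libraries. The labels give oligo(dT) capture or rRNA depletion and paired-end sequencing, and the study's methods name oligo(dT) capture. The authors deposited 1 table of gene read counts and FPKM; their processing notes name cutadapt, FastQC, HISAT2, HTSeq 0.6.1, DESeq2 1.34.0 and GRCm39, and the strand setting is not given in the sources used here. The deposited FPKM values equalled counts per kb scaled to library totals within 0.00501 in 100% of cases. Totals of 13521200 to 18601445 counts set the precision, and libraries of a group differed beyond counting error (chi-square per degree of freedom at least 6.07).

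Groups came from the sample titles. Counts were tested with edgeR 4.0.16 (quasi-likelihood F, TMM, 1 fit over all groups, R 4.3.3) for 13990 genes with a mean of at least 0.5 FPKM, with Benjamini-Hochberg adjustment over all of them. A gene was called at an adjusted p under 0.05, and SEs were derived from the fold change and F. Exact two-sided permutation tests used log2(FPKM + 0.1) (252 or 462 arrangements, scipy 1.17.1); those for the tumor comparisons were added after the data were seen. The fit was tested on simulated data. The planned test of ligand shares is not reported, because shares combine members.

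The members and gene lists were chosen with earlier results of these data known. All 9 members were named, and of each pathway list the 3 genes with the smallest p in either doxorubicin comparison and the most abundant gene. Further listed genes were named after their values were seen. A listed gene that is counted but not named is not reported here. For likeness, the 2 genes with the highest Spearman rho per member were named. Alternatives were other scalings (median-ratio, upper-quartile, library totals), filters, DESeq2 1.42.0, limma 3.58.1 (log2 FPKM, and voom with library weights), a robust spread, only the 2 groups, a replicate block, single libraries left out and stricter call rules. Promoter windows came from RefSeq on GRCm38.p6, while gene coordinates are those of the deposited table.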

Additional observations from a re-analysis of the deposited data

Results flagged for a closer look

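In 6 of the 36 gene and group combinations 1 library lay far from the others of its group by Dixon's criterion, where chance gives about 1 in 20. Tb replicate 5 was the far library 3 times, at 44.7 CPM of *Tgfb2* (nearest library 20.86), 75.78 CPM of *Tgfbr1* (nearest 41.16) and 53.19 CPM of *Smad7* (nearest 28.45). *Tgfb2* was low in DOX replicate 2 at 16.6 CPM (nearest 22.96), *Inhba* was high in Tb-DOX replicate 4 at 9.515 CPM (nearest 4.765), and *Smad3* was low in Control replicate 3 at 10.83 CPM (nearest 16.76).

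For *Tgfbr1* all 5 DOX libraries lay above the mean of Control and all 5 Tb-DOX libraries below the mean of Tb, a mean that includes Tb replicate 5, while neither difference passed (0.10 and -0.30, edgeR adjusted p = 0.681 and 0.32). The interaction was -0.4065 on the log2 scale and did not pass either (edgeR adjusted p = 0.27). Without Tb replicate 5 it was -0.161 and the Tb-DOX against Tb difference -0.05, and the DOX against Control difference was -0.035 with scaling by library totals.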

How the results depend on the processing

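Under 1536 alternative values of single members, 1442 kept their direction and their side of the threshold, 23 kept the direction and lost the call, 13 gained a call and 58 changed sign. The count of members called in DOX against Control was 0 in place of 1 with a mean of at least 5 FPKM (which leaves only the 3 receptors tested), with a log2 fold change of at least 1 and with an adjusted p under 0.01. In Tb against Control it went from 2 to 0 with at least 5 FPKM, with limma on log2(FPKM + 0.1) or log2(FPKM + 0.01) and with an adjusted p under 0.01, and to 1 with limma on log2(FPKM + 1), with only the 2 groups in the fit, without both libraries that stood apart and with a log2 fold change of at least 1. In Tb-DOX against DOX it went from 1 to 0 with at least 5 FPKM and with either stricter call rule, and to 2 with voom weights and without both libraries (*Tgfb1* and *Tgfb2*) and with only the 2 groups (*Tgfb2* and *Tgfbr1*, while *Tgfb1* was not called). In Tb-DOX against Tb it went from 0 to 1 without the filter on low values and with DESeq2, and to 2 with voom weights. The interaction called 0 members under every alternative run, in edgeR, DESeq2 and limma. Removing single libraries gave 0 to 1 members in DOX against Control and in Tb-DOX against Tb, and 0 to 2 in Tb against Control and in Tb-DOX against DOX. The further pathway genes called in DOX against Control were 11 of 26 with at least 5 FPKM, 11 with a log2 fold change of at least 1 and 15 with an adjusted p under 0.01. In Tb-DOX against Tb they were 10, but 6 with at least 5 FPKM, 5, 6 and 5 with limma at pseudocounts of 0.1, 1 and 0.01, 21 with voom weights, 5 with only the 2 groups, 15 with DESeq2, 4 with a log2 fold change of at least 1, 1 with an adjusted p under 0.01, and 2 to 12 with a single library removed.

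Signs changed for differences that were not called in the edgeR fit on all libraries. In size these ran from 0.01 (*Smad7* in DOX against Control) to 0.24 (*Tgfb2* in Tb against Control), so not all were close to no difference. In Tb against Control voom weights and the fit without both libraries gave -0.0529 and -0.0786 for *Tgfb2*, -0.129 and -0.0977 for *Tgfbr1* and -0.0283 and -0.0227 for *Tgfbr3*. The same 2 settings gave 0.0389 and 0.0874 for *Inhba* in DOX against Control and 0.0733 and 0.0623 for *Tgfbr2* in Tb-DOX against Tb. Library totals, and limma at 0.1, 1 and 0.01, gave -0.035, -0.0215, -0.0201 and -0.0217 for *Tgfbr1* in DOX against Control. In that order they gave 0.0606, 0.0586, 0.0451 and 0.0603 for the interaction of *Smad3*, which was also 0.0605 with voom weights and 0.0438 without both libraries. For *Smad3* in Tb-DOX against DOX they gave 0.00908, 0.0129, 0.0087 and 0.0135, for *Smad7* in Tb-DOX against DOX 0.0465, 0.0512, 0.0398 and 0.0527, and for *Smad7* in DOX against Control -0.135, -0.166, -0.128 and -0.172. The last was also -0.00561 with upper-quartile factors, -0.0645 with voom weights and -0.0489 with the replicate block. Library totals moved the median of all genes to -0.135 in DOX against Control, 0.179 in Tb-DOX against DOX and 0.144 in the interaction.

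With a single library removed, *Tgfb1* in Tb-DOX against Tb ranged from -0.0382 to 0.235, *Tgfb2* in Tb against Control from -0.0749 to 0.334, *Inhba* in DOX against Control from -0.564 to 0.0945 and *Tgfbr1* in Tb against Control from -0.0946 to 0.235. *Tgfbr2* ranged from -0.287 to 0.0665 in Tb-DOX against Tb and from -0.0599 to 0.177 in Tb-DOX against DOX, and *Tgfbr3* in Tb against Control from -0.0193 to 0.11. The interaction of *Smad3* ranged from -0.147 to 0.0456, and *Smad7* from -0.166 to 0.128 in DOX against Control and from -0.27 to 0.0129 in Tb-DOX against DOX.

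Residuals of same-numbered libraries correlated between -0.234 and 0.21, so the numbers were not taken to pair libraries. With the replicate block the members called in Tb against Control were 0 (*Tgfb3* -0.64, adjusted p = 0.117, *Inhba* 1.13, adjusted p = 0.147, both edgeR), those in DOX against Control 1 and those in Tb-DOX against DOX 1, and the pathway counts were 25 and 10. *Atoh8* was not called in DOX against Control with the replicate block. The cause of these differences between settings was not tested. The fit without both libraries was chosen after seeing the data, and the fit of only the 2 groups cannot give the interaction. *Inhba* rests on as few as 22 reads in a library, the fewest among the 9, and had the largest SEs. How far read number set these was not tested.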
